A study of Mus musculus with 20 samples.

Results

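RNA editing by the p110 form of ADAR1 was examined by setting p150-knockout mouse embryonic fibroblasts against ADAR1-null fibroblasts. The p150-knockout line lacks the interferon-inducible form of the enzyme and the ADAR1-null line lacks ADAR1 altogether, so the lines differ by p110 as far as their labels say. The 8 libraries of these lines were taken from the 20 libraries of the series. A site was a member if it had at least 50 reads in each of the 8 libraries, which 4259 of the 48425 listed sites had. These sites lie in 196 loci, 176 of them annotated genes.

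Adenosine-to-inosine editing converts adenosines in double-stranded RNA to inosine, which is read as guanosine by ribosomes and by reverse transcriptase. ADAR1 is made as a constitutive, mainly nuclear p110 form and as a longer p150 form that is induced by interferon and is found largely in the cytoplasm. ADAR2, encoded by Adarb1, is the other active editing enzyme of mammals and is best known for recoding sites in neuronal receptor transcripts.

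The study amplified 557 loci by reverse-transcription PCR from fibroblast lines of several genotypes and sequenced the products to read the share of edited reads at known sites. The groups used here were p150-knockout cells (labelled P150_KO) with interferon and untreated, and ADAR1-null cells (labelled ADAR1_NULL) with interferon and untreated, with 2 libraries in each of the 4 groups. Both lines lack p150, and no label names a change of Adarb1 in either. The labels give neither the strain, nor the type, dose or duration of interferon, nor how the lines were made.

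Each genotype is 1 line, so p110 and any other difference between the lines cannot be told apart. Whether replicate libraries stem from separate cultures is not labelled, and p-values here reflect only library-to-library spread, part of which may be technical. The assay gives editing levels and not transcript amounts, so the loss of the targeted transcripts could not be checked: of the sites listed in Adar and Stat2, 0 reached 50 reads in the 8 libraries, and in Adarb1 20 of 52 did. Fibroblast identity could not be checked either, since 3 of 8 fibroblast markers had a listed site and 0 had one with 50 reads, and of 5 neuronal and 4 macrophage markers 0 had a site with 50 reads. Total coverage was 4389326 to 5559674 reads per library. Sites with 50 reads were fewest in replicate 1 of interferon-treated p150-knockout cells, 5819, and replicate 1 of untreated ADAR1-null cells, 5652, against up to 8637 in the other libraries of the lines.

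Most members carried little editing in either line. At least 1 edited read was found at 4045 of the 4259 members, but 4145 of them had a mean level below 1% over the 8 libraries. The mean level over all members was 0.452% and 0.428% in interferon-treated and 0.369% and 0.373% in untreated p150-knockout libraries. In ADAR1-null libraries it was 0.287% and 0.262% with interferon and 0.236% and 0.306% untreated. The line means were 0.405% ± 0.0413 in p150-knockout and 0.273% ± 0.0303 in ADAR1-null cells (SD, n = 4 each), a difference of 0.133 percentage points (SE 0.0195), and the libraries of the lines did not overlap. No edited read was seen in the 4 libraries of the line at 389 members in p150-knockout cells, against 629 in ADAR1-null cells. By library, such members numbered 2370 in the first untreated ADAR1-null library and 1685 to 1765 in the others of that line. In p150-knockout libraries they numbered 1404 to 1599. No error rate was measured against which levels this low could be set. A mean level of 5 to 10% was reached by 14 members in p150-knockout cells, against 1 in ADAR1-null cells, and 10% or more by 4 members, against 3. Such a mean can rest on 1 library. The 4 include Cycs at chr6:50512701, with 78.2% in the first interferon-treated p150-knockout library and at most 0.795% in any other.

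The 114 members whose level averaged at least 1% across the 8 libraries were tested. This minimum can be met through 1 line alone, so the tested sites do not stand for all members. The sites closest to the minimum were Nt5dc3 at chr10:86300005, inside it at 1.01%, and Commd2 at chr3:57448342, outside it at 0.995%. The tested sites fall in 68 genes, with 87 in 3′ UTRs, 12 in introns, 8 at nonsynonymous and 1 at a synonymous coding position, 5 in a noncoding RNA and 1 in a 5′ UTR.

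Their mean level was 4.93% and 3.65% in interferon-treated and 3.68% and 3.64% in untreated p150-knockout libraries. In ADAR1-null libraries it was 1.80% and 1.66% with interferon and 2.97% and 2.56% untreated. Every p150-knockout library was above every ADAR1-null library. The line means were 3.97% ± 0.636 in p150-knockout and 2.25% ± 0.625 in ADAR1-null cells (SD, n = 4 each), a difference of 1.73 points (SE 0.337). The mean level was higher in p150-knockout cells at 81 sites and lower at 33, and the median difference over the tested sites was 1.24 points. The median level, unlike the mean, overlapped between the lines: it was 0.925% in the first interferon-treated p150-knockout library, against 1.01% and 1.18% in the untreated ADAR1-null libraries.

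**Figure D1:**
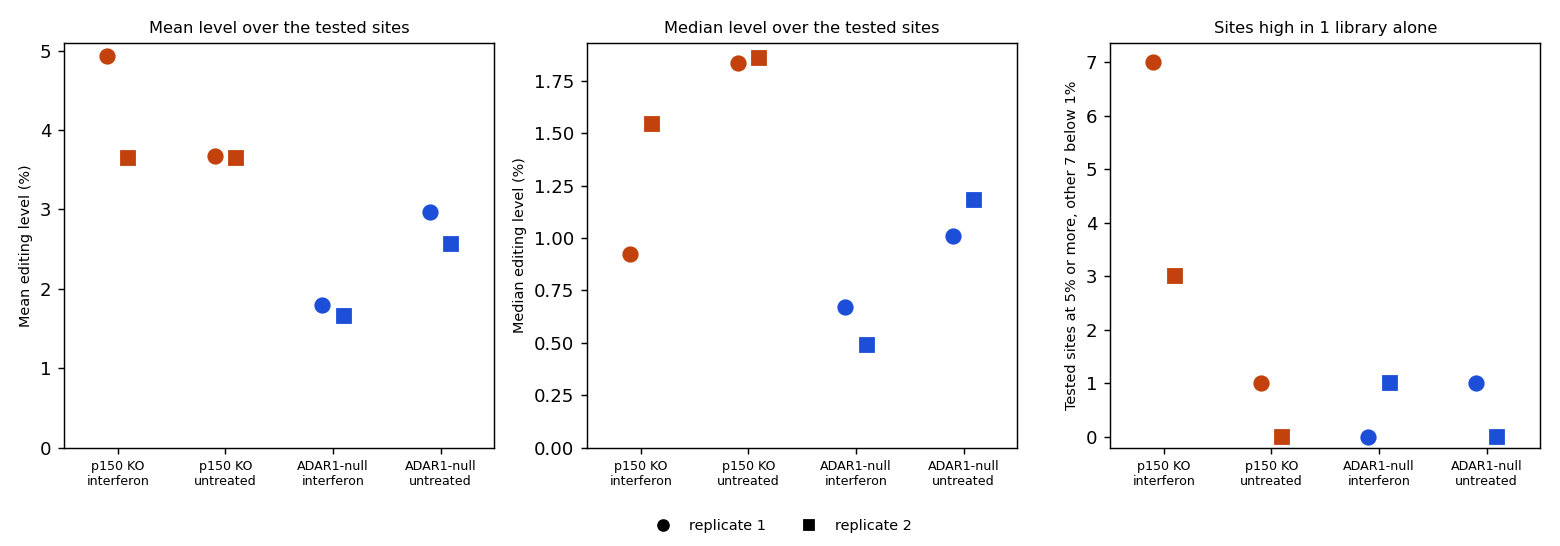
Mean level (left, %), median level (middle, %) over the 114 tested sites, and number of tested sites at 5% or more in 1 library with the other 7 below 1% (right), each point 1 library, for p150-knockout and then ADAR1-null cells. The mean levels of p150-knockout libraries, 3.64% to 4.93%, lie above those of ADAR1-null libraries, 1.66% to 2.97%. Replicate 1 of interferon-treated p150-knockout cells has 7 sites that are high in it alone.

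The first interferon-treated p150-knockout library stood apart from its replicate. Of the tested sites, 7 were at 5% or more in it with the other 7 libraries below 1%, against 3 such sites in the second interferon-treated p150-knockout library, 1 in the first untreated one, and 1 each in an untreated and an interferon-treated ADAR1-null library. Over all members, not only the tested ones, such sites numbered 16 in the first interferon-treated p150-knockout library, 5 in the second and at most 1 in any other. The most extreme of the tested sites was Cycs, the gene of cytochrome c, at chr6:50512701. It had 172 of 220 reads edited (78.2%) in the first interferon-treated p150-knockout library and at most 0.795% in any other. The part of this library in the results was not tested as a cause. Numbers of called sites are also given without it. The difference in mean level was 1.51 points without it, over the 125 sites that then met the minimums, against 1.73 points with it. Counts of sites by mean level, by direction and by overlap of libraries include it and were not repeated without it.

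Editing at 7 of the 114 tested sites (6.14%) differed between the lines at a Benjamini-Hochberg adjusted p under 0.05 in edgeR's quasi-likelihood test with treatment as a term. The level was higher in p150-knockout cells at 5 sites (4.39% of those tested), in Blcap, Mdc1, Ovca2 and 9930104L06Rik, and lower at 2 sites (1.75%), in Als2cl and Iqgap1. The 4 libraries of p150-knockout cells lay wholly above those of ADAR1-null cells at 20 sites and wholly below at 4, while at 90 sites they overlapped. The number of calls depended on single libraries. It was 23 without the first and 25 without the second interferon-treated p150-knockout library, 2 without either of the untreated p150-knockout libraries and 4 without the second interferon-treated ADAR1-null library, and it was 22 without the 2 libraries that had the fewest sites with 50 reads.

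**Figure D2:**
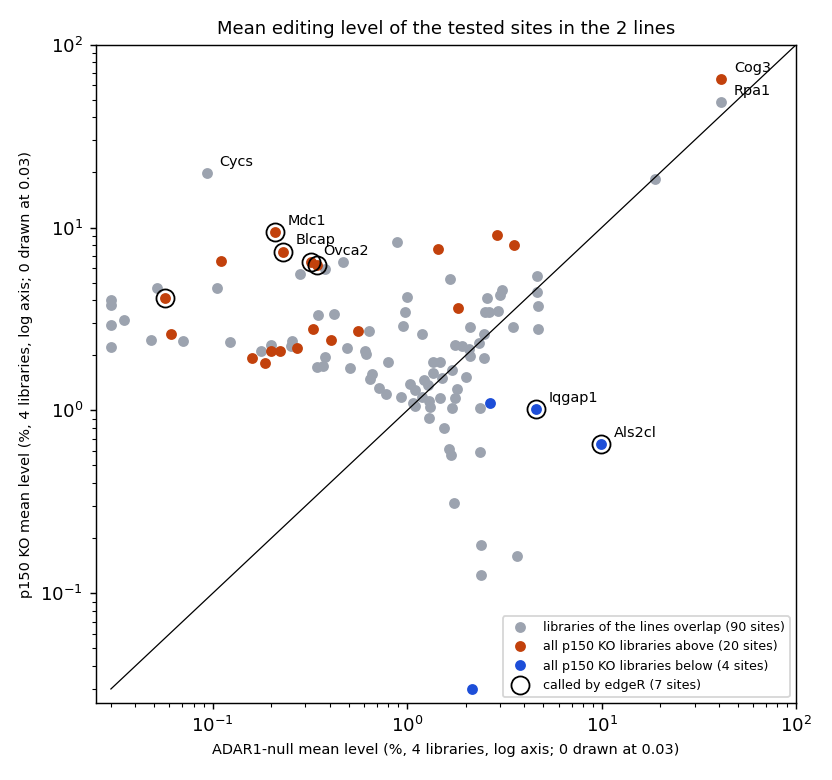
Mean editing level of each of the 114 tested sites in p150-knockout cells (vertical, %) against ADAR1-null cells (horizontal, %), both on log axes with 0 drawn at 0.03; the line marks equal levels, colours mark sites whose libraries do not overlap and rings mark the 7 called sites. The 20 sites with every p150-knockout library above lie over the line, most of them below 1% in ADAR1-null cells, and Als2cl and Iqgap1 lie under it.

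Blcap encodes a small membrane protein whose transcript is edited within its coding sequence in mammals. Its site at chr2:157383885 (minus strand) changes Tyr to Cys. It was edited at 11.8% and 5.39% in interferon-treated and 4.95% and 7.37% in untreated p150-knockout libraries, against 0.106% and 0.241% in interferon-treated and 0.387% and 0.181% in untreated ADAR1-null libraries. All 4 p150-knockout libraries were far above the 4 ADAR1-null libraries, each read at 4150 to 5672 reads. The means were 7.38% ± 3.13 and 0.229% ± 0.119 (SD, n = 4 each), a difference of 7.15 points (SE 1.71). The log2 odds ratio between the lines was 5.12, with an adjusted p of 0.000842. The call held without each library in turn, with adjusted p of at most 0.0121. A second Blcap site 9 bases away, at chr2:157383876, changes Gln to Arg. It read 4.83% and 0.689% with interferon and 1.10% and 2.17% untreated in p150-knockout cells, and 0.106% and 0.362% with interferon and 0.258% and 0.362% untreated in ADAR1-null cells. Its libraries did not overlap either, and its adjusted p was 0.0506.

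The other sites with higher editing were in 3′ UTRs. Mdc1, a scaffold of the DNA damage checkpoint, was edited at chr17:35994679 (plus strand) at 5.57% and 11.9% in interferon-treated and 11.2% and 8.99% in untreated p150-knockout libraries. In ADAR1-null libraries the levels were 0% and 0.1% with interferon and 0% and 0.735% untreated. The lowest p150-knockout library was thus above the highest ADAR1-null library. The means were 9.40% ± 2.83 and 0.209% ± 0.354 (SD, n = 4 each), which differed by 9.19 points (SE 1.68, adjusted p 0.0121). Over the 4 ADAR1-null libraries 9 reads were edited, with 887 to 1490 reads at the site per library of the lines. The call was lost without the first (adjusted p 0.0532) or the second untreated p150-knockout library (0.0541) or the second interferon-treated ADAR1-null library (0.0545), with differences of 8.65 to 9.73 points. A second Mdc1 site, at chr17:35995550, read 22.9% in the first interferon-treated p150-knockout library and at most 2.01% in the other 7, with an adjusted p of 0.323.

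Ovca2 encodes a serine hydrolase. At chr11:74989846 (minus strand) it was edited at 2.49% and 7.83% in interferon-treated and 7.59% and 8.07% in untreated p150-knockout libraries, against 0.655% and 0.476% in interferon-treated and 0% and 0.144% in untreated ADAR1-null libraries. The means were 6.49% ± 2.68 and 0.319% ± 0.300 (SD, n = 4 each), a difference of 6.18 points (SE 1.34, adjusted p 0.0201), and the libraries did not overlap. The call was lost without either untreated p150-knockout library (adjusted p 0.0935 and 0.108), the second untreated ADAR1-null library (0.118) or the second interferon-treated ADAR1-null library (0.0634). The adjacent adenosine at chr11:74989847 was at 2.13% ± 0.828 in p150-knockout and 0.199% ± 0.208 in ADAR1-null cells, with an adjusted p of 0.0506.

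The 3′ UTR of 9930104L06Rik held 6 tested sites over 1091 bases, the most of any gene beside Mad2l1. The mean level was higher in p150-knockout cells at all 6, against 81 of the 114 tested sites. At 2 of them the difference was called and at 3 the libraries did not overlap, against 7 called and 20 wholly above among all tested sites. Their ADAR1-null means ran from 0.0349% to 1.45%. Most thus met the minimum of 1% through p150-knockout cells, so their direction was partly set by how they were picked. Those at 124620535 and 124620544, and those at 124621617, 124621620 and 124621626, lie close together and are not independent. The site at chr4:124620535 (plus strand) read 12% and 6.22% with interferon and 3.79% and 3.07% untreated in p150-knockout cells. In ADAR1-null cells it read 0.165% and 0.232% with interferon and 0.107% and 0.869% untreated, a difference of 5.92 points (SE 1.46, adjusted p 0.0142). This call was lost without either untreated p150-knockout library (adjusted p 0.0532 and 0.0541) or the second interferon-treated ADAR1-null library (0.0643). The second called site, at chr4:124620544, averaged 4.12% ± 3.95 and 0.0569% ± 0.0705, and 9.91% in the first interferon-treated p150-knockout library was its highest level (adjusted p 0.0142). Without that library its mean level fell below 1% and it was not tested. The call was also lost without either untreated p150-knockout library (adjusted p 0.0532 and 0.0711) or the second interferon-treated ADAR1-null library (0.0545), and by quasi-binomial regression (0.105).

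Editing was lower in p150-knockout than in ADAR1-null cells at a pair of 3′ UTR sites. Als2cl was edited at chr9:110802807 (plus strand) at 0.256% and 1.05% in interferon-treated and 0.498% and 0.818% in untreated p150-knockout libraries. The ADAR1-null libraries had 8.86% and 9.30% with interferon and 11.4% and 10.4% untreated. All ADAR1-null libraries were above all p150-knockout libraries, with little spread in either line. The means were 0.655% ± 0.350 and 9.97% ± 1.12 (SD, n = 4 each), a difference of -9.32 points (SE 0.346, adjusted p 0.00935). The call was lost without either untreated p150-knockout library (adjusted p 0.0532 and 0.0526). This site had 381 to 603 reads per library.

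Iqgap1 is a scaffold that binds actin filaments. Its site at chr7:87857166 (minus strand) was among the most deeply read, with 5817 to 10155 reads per library. It read 0.927% and 1.08% in interferon-treated and 0.769% and 1.30% in untreated p150-knockout libraries, against 5.72% and 4.47% in interferon-treated and 4.33% and 3.78% in untreated ADAR1-null libraries. The means were 1.02% ± 0.226 and 4.58% ± 0.818 (SD, n = 4 each), which differed by -3.56 points (SE 0.368, adjusted p 0.00605) with no overlap. The call held without each library in turn, with adjusted p of at most 0.0475.

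**Figure D3:**
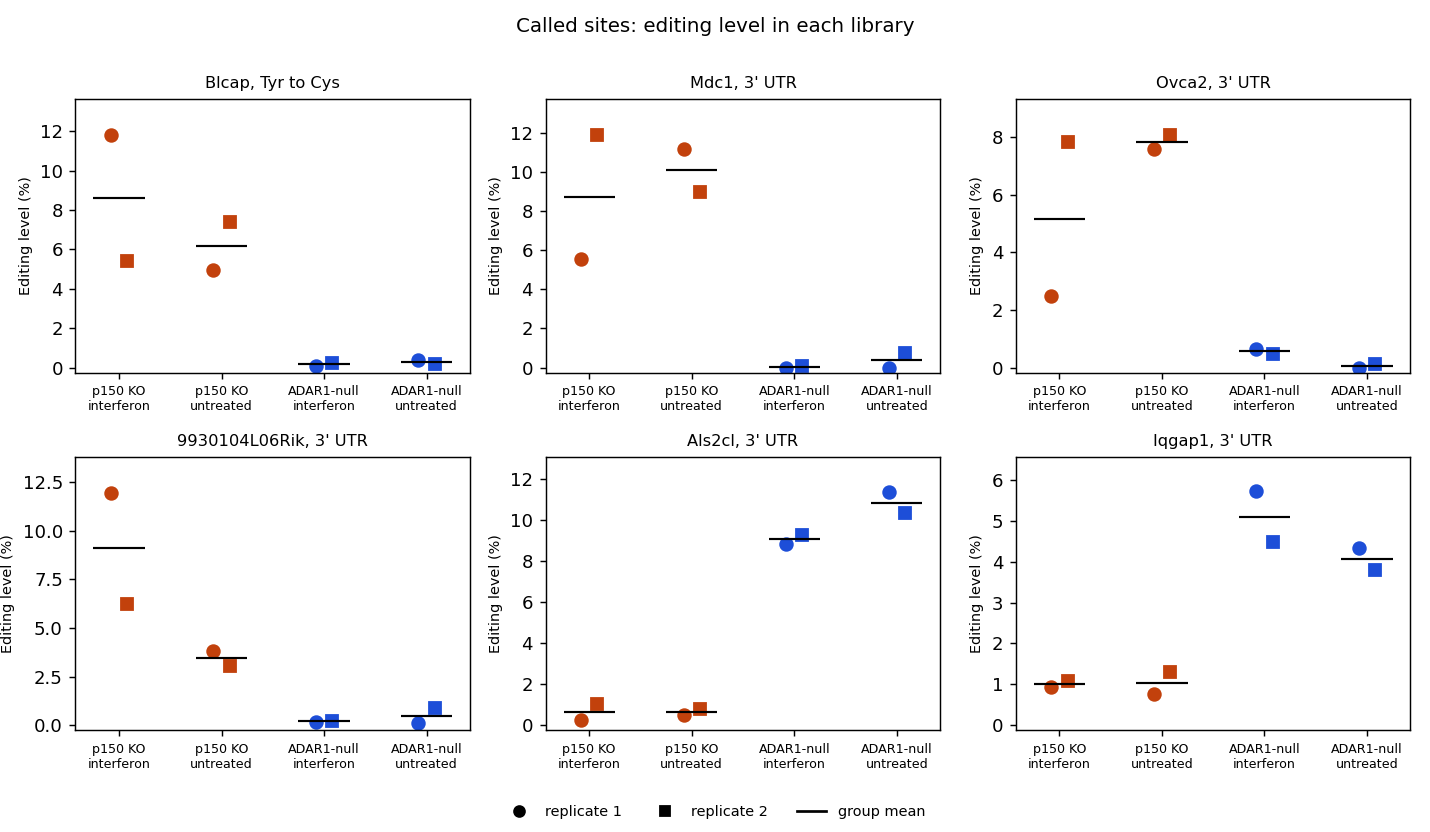
Editing level (%) in each library at the 6 named sites that were called, with p150-knockout groups left of ADAR1-null groups, circles and squares for the replicates and bars for group means. Blcap, Mdc1, Ovca2 and 9930104L06Rik were below 1% in every ADAR1-null library, whereas Als2cl and Iqgap1 were at or below 1.3% in every p150-knockout library.

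Within a treatment the numbers of calls were small. With interferon 1 of 114 sites was called (0.877%), the Blcap Tyr-to-Cys site, which differed by 8.43 points (adjusted p 0.0161), and 19 sites had an unadjusted p under 0.05. Limma also called this site with interferon (adjusted p 0.0405), but quasi-binomial regression did not (0.124) and called 3 others. The call was lost with the replicate number as a block (0.0604), without either untreated p150-knockout library (0.0882 and 0.0641), and without any 1 of the ADAR1-null libraries (0.0517 to 0.216). It was also lost without the 2 libraries that had the fewest sites with 50 reads (0.0670). In untreated cells 0 sites were called by edgeR (0%), although 20 had an unadjusted p under 0.05, limma called 7 and quasi-binomial regression 1. Untreated, Blcap differed by 5.87 points with an adjusted p of 0.0518. The test of whether the difference between the lines itself differed between interferon-treated and untreated cells called 0 sites by edgeR (0%) and likewise 0 by limma and by quasi-binomial regression, while 4 sites had an unadjusted p under 0.05. Without the second interferon-treated p150-knockout library, 18 sites were called with interferon and 13 untreated.

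By position in the transcript, 4 of 87 3′ UTR sites (4.60%) were higher and 2 (2.30%) lower in p150-knockout cells, near the 4.39% and 1.75% of all tested sites, with a median difference of 0.930 points. Of the 8 nonsynonymous sites 1 was higher (12.5%), Blcap Tyr to Cys, against 4.39% of all tested sites. At 5 of them (62.5%) the p150-knockout libraries were wholly above, against 20 of the 114 tested sites (17.5%). The 5 include both Blcap sites, which lie 9 bases apart and are not independent. The nonsynonymous sites had a median level of 3.05% in p150-knockout and 0.377% in ADAR1-null cells. As the minimum of 1% can be met through 1 line alone, the share may owe to how these sites were picked. Their median difference was 2.71 points, beside 1.24 points over all tested sites. Of the 12 intronic sites edgeR called 0, with 2 at an unadjusted p under 0.05, 2 called by limma and 0 by quasi-binomial regression, and the median difference was 1.56 points. The 5 sites in the noncoding RNA had a median difference of 0.809 points and 0 calls by any of the 3 tests, with 1 at an unadjusted p under 0.05. Over all 114 tested sites edgeR called 7, limma 20 and quasi-binomial regression 14, and 35 had an unadjusted p under 0.05.

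The genes known for ADAR2-type editing, which recode proteins or lie in the Adarb1 transcript itself, gave 6 tested sites in 4 of the 19 listed genes. None was called by edgeR, 3 had an unadjusted p under 0.05, and limma called 2 and quasi-binomial regression 1. Over all 114 tested sites edgeR called 7, 35 had an unadjusted p under 0.05, and limma called 20 and quasi-binomial regression 14. Cog3, a subunit of the Golgi-tethering COG complex, had the highest mean level of the tested sites in both lines, closely followed by Rpa1 in ADAR1-null cells. At chr14:76119526 (minus strand, Ile to Val) it read 67.4% and 60.2% in interferon-treated and 67.6% and 62.9% in untreated p150-knockout libraries, against 29.4% and 33.2% in interferon-treated and 50.4% and 51.7% in untreated ADAR1-null libraries. The libraries of the lines did not overlap, and within ADAR1-null cells both interferon-treated libraries were below both untreated ones. The means were 64.5% ± 3.60 and 41.2% ± 11.5 (SD, n = 4 each), a difference of 23.3 points (SE 2.37), but the adjusted p was 0.149. It was 0.0161 when all 20 libraries entered the fit, 0.0178 among the sites with a mean of at least 5% and 0.0394 by quasi-binomial regression. The neighbouring synonymous adenosine at chr14:76119527 averaged 2.77% ± 1.79 in p150-knockout and 4.72% ± 3.51 in ADAR1-null cells (adjusted p 0.572).

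Gria3 encodes a subunit of AMPA-type glutamate receptors. Its Arg-to-Gly site at chrX:39007429 (plus strand) read 15.8% and 1.70% with interferon and 7.97% and 7.77% untreated in p150-knockout cells, and 0% and 0.337% with interferon and 2.75% and 0.467% untreated in ADAR1-null cells. The libraries overlapped, since the second interferon-treated p150-knockout library was below replicate 1 of untreated ADAR1-null cells, and the difference of 7.42 points (SE 3.58) had an adjusted p of 0.0715. It was 3.90 points without the first interferon-treated p150-knockout library (adjusted p 0.0575), and 11 points and called without the second (0.0262). The other tested Gria3 site, at chrX:39007465, was 2.38 points higher in p150-knockout cells. Its libraries overlapped and it was not called, though 8 of the 20 alternatives called it. The intronic Adarb1 site at chr10:76786805 read 0.0523% and 0.229% in interferon-treated and 6.86% and 6.63% in untreated p150-knockout libraries, against 2.40% and 0.109% in interferon-treated and 4.38% and 3.15% in untreated ADAR1-null libraries (adjusted p 0.924).

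**Figure D4:**
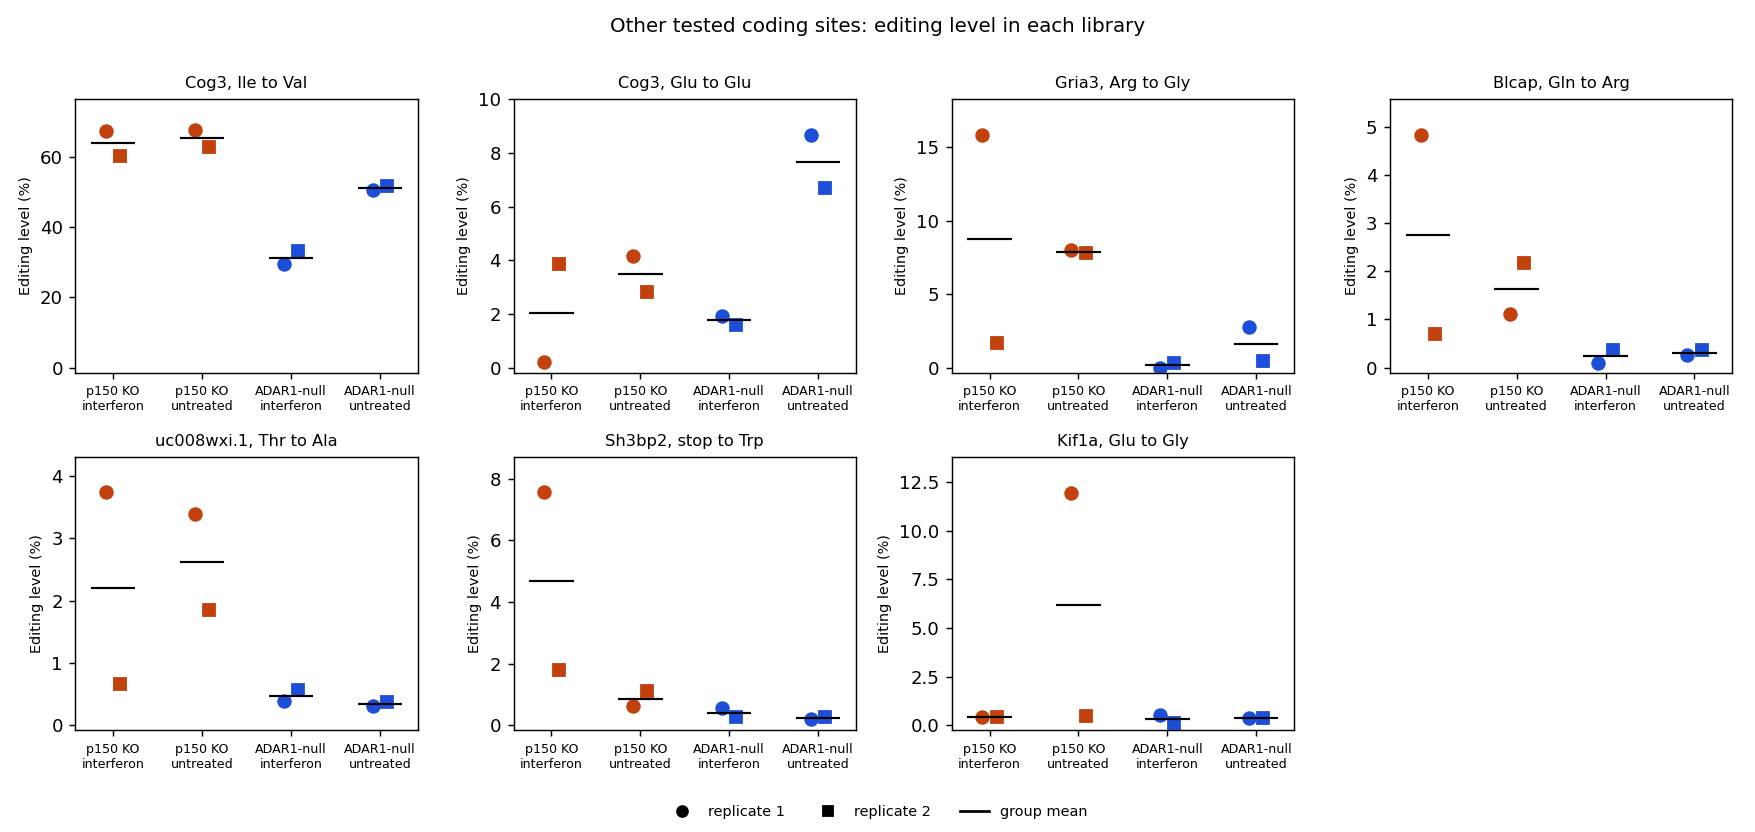
Editing level (%) in each library at 7 tested coding sites, with p150-knockout groups left of ADAR1-null groups, circles and squares for the replicates and bars for group means. Cog3 Ile to Val is at 60.2% to 67.6% in p150-knockout libraries and 29.4% to 51.7% in ADAR1-null libraries, and Kif1a is high in 1 library alone.

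The remaining coding sites were low. Sh3bp2, an adaptor of tyrosine kinase signalling, had a stop-to-Trp site at 7.56% and 1.80% with interferon and 0.610% and 1.13% untreated in p150-knockout cells, and at most 0.557% in ADAR1-null cells (adjusted p 0.0850). The Thr-to-Ala site of the transcript uc008wxi.1 read 0.663% to 3.75% in p150-knockout and 0.307% to 0.567% in ADAR1-null libraries (adjusted p 0.0973). At both sites the libraries of the lines did not overlap, but only narrowly. The lowest p150-knockout and highest ADAR1-null levels were 0.610% and 0.557% in Sh3bp2, and 0.663% and 0.567% in uc008wxi.1. Kif1a, a kinesin motor, had a Glu-to-Gly site at 12% in the first untreated p150-knockout library and at most 0.511% in the others (adjusted p 0.384). These 3 sites were chosen for description after their values were seen.

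Long 3′ UTR duplexes were represented by Mad2l1, a spindle checkpoint protein, and Rpa1, the large subunit of replication protein A, which coats single-stranded DNA. Of their 9 tested sites 0 were called by edgeR, limma or quasi-binomial regression, 0 had an unadjusted p under 0.05, and the median difference was -0.139 points. Over all 114 tested sites edgeR called 7, limma 20 and quasi-binomial regression 14, and 35 had an unadjusted p under 0.05. With 9 sites, 0 calls by edgeR is close to its share over all tested sites, 6.14%. Rpa1 at chr11:75114517 (minus strand) was heavily edited in both lines, at 31.9% and 52.2% with interferon and 58.0% and 51.6% untreated in p150-knockout libraries, against 37.1% and 36.4% with interferon and 50% and 40.7% untreated in ADAR1-null libraries. The difference of 7.38 points (SE 5.82, adjusted p 0.779) rested on 70 to 163 reads per library, where the widest arm of a 95% Wilson interval was 11.4 points. It was 12.5 points without the first and 2.30 points without the second interferon-treated p150-knockout library. Mad2l1 at chr6:66490208 averaged 4.42% ± 2.22 in p150-knockout and 4.65% ± 3.33 in ADAR1-null cells (adjusted p 0.993), from 6716 to 10706 reads. Its 4 sites at adjacent positions from 66490206 to 66490209 lie in the same reads and are not independent.

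The noncoding transcript uc012aji.1 carried 5 tested sites within 28 bases. At chr17:6122636 it read 7.64% and 17.6% in interferon-treated and 24.1% and 24.8% in untreated p150-knockout libraries, against 16.9% and 16.5% in interferon-treated and 23.3% and 18.1% in untreated ADAR1-null libraries. The libraries overlapped and the means, 18.5% ± 7.96 and 18.7% ± 3.14, had an adjusted p of 0.927.

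Of the DNA repair and cell cycle genes, 12 sites in 4 genes were tested and 1 was higher (8.33%), that in Mdc1, beside 4.39% of all tested sites. Their median difference was 0.297 points, beside 1.24 points over all tested sites. Of these 12 sites, 9 are the Mad2l1 and Rpa1 sites described above, so this median is not separate from theirs. The mismatch repair gene Mlh3 averaged 1.60% ± 0.720 and 1.35% ± 0.217 at chr12:86575953 (adjusted p 0.927). Of the 20 interferon pathway genes, only Ifnar1, a subunit of the type I interferon receptor, had a tested site. This intronic site at chr16:91490901 read 6.98% in the first interferon-treated p150-knockout library and at most 0.812% in the other 7 libraries, and was not called (adjusted p 0.562; unadjusted p not under 0.05; 0 calls by limma and quasi-binomial regression). None of the 7 nuclear-retained RNAs on the list had a site with 50 reads in the 8 libraries.

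Further sites separated the lines without being called, and were chosen for description after their values were seen. Bri3bp at chr5:125936975 averaged 2.11% ± 0.782 in p150-knockout and 0.221% ± 0.201 in ADAR1-null cells (adjusted p 0.0506). Psma3, a subunit of the proteasome core, read 5.99% and 5.56% with interferon and 9.74% and 10.8% untreated in p150-knockout cells, against 2.93% and 0.952% with interferon and 4.97% and 5.36% untreated in ADAR1-null cells (adjusted p 0.186). The intronic Fnbp1 site at chr2:30885884 was nearly constant in p150-knockout libraries, 3.61% ± 0.0520, beside 1.83% ± 0.875 in ADAR1-null libraries (adjusted p 0.337). In the other direction, D9Ertd402e (Tcaim in RefSeq) at chr9:122745198 had 0 of 603 edited reads in p150-knockout cells, which allows a level of up to 0.498%. In ADAR1-null cells 15 of 627 reads were edited, at 0.633% to 4.93% per library (adjusted p 0.0715). With 61 to 205 reads per library of the lines, the lower of these levels rest on very few edited reads. The centrosomal gene Cep97 at chr16:55901728 averaged 1.10% ± 0.560 and 2.67% ± 0.577 (adjusted p 0.268).

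The other lines give the levels in cells whose labels name no loss of p150: ADAR2-null cells, STAT2-null cells, which lack a transcription factor of the interferon response, and wild-type cells (labelled ADAR1_WT). Over the 113 tested sites read in all 20 libraries, the mean level was 4.32% ± 0.912 with interferon and 3.64% ± 0.0468 untreated in p150-knockout cells, and 1.74% ± 0.0975 with interferon and 2.79% ± 0.288 untreated in ADAR1-null cells (SD, n = 2 each). It was 16.3% ± 1.29 and 4.10% ± 0.884 in ADAR2-null, 9.70% ± 0.912 and 9.34% ± 0.273 in STAT2-null and 21.3% ± 0.975 and 11.6% ± 0.304 in wild-type cells, interferon first. Every other line was below wild type in both treatments, ADAR2-null and STAT2-null cells as well as the lines without p150. These differences were not tested.

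Site by site, the lines fell in different orders. Blcap Tyr to Cys was at 18.4% ± 0.957 and 19.3% ± 5.40 in ADAR2-null, 34.0% ± 1.09 and 30.8% ± 0.0711 in STAT2-null and 26.1% ± 1.99 and 14.8% ± 3.61 in wild-type cells, with interferon and untreated, all above the p150-knockout means of the same treatment. The 9930104L06Rik site did not follow this order, with 0.192% ± 0.0678 in untreated wild-type cells, below the p150-knockout libraries. With interferon the wild-type replicates were far apart, at 10.1% and 0.386%. This site averaged 16.3% and 6.67% in ADAR2-null and 9.65% and 10.1% in STAT2-null cells, interferon first, all above the p150-knockout means of the same treatment. Als2cl was at 0.884% ± 1.25 with interferon and 0.499% ± 0.319 untreated in ADAR2-null cells, near its p150-knockout level, and at 7.16% ± 0.109 and 7.36% ± 0.796 in wild-type cells, nearer its ADAR1-null level. Iqgap1 was at 1.32% ± 0.313 and 1.2% ± 0.508 in STAT2-null cells, near the p150-knockout mean of 1.02%, and at 16.8% ± 1.94 and 4.35% ± 0.360 in wild-type cells. Cog3 was lowest in ADAR2-null cells, 12.8% ± 1.04 and 7.93% ± 0.286, and highest in wild-type cells, 85.6% ± 0.9 and 91.2% ± 1.47, with both p150-lacking lines between them.

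**Figure D5:**
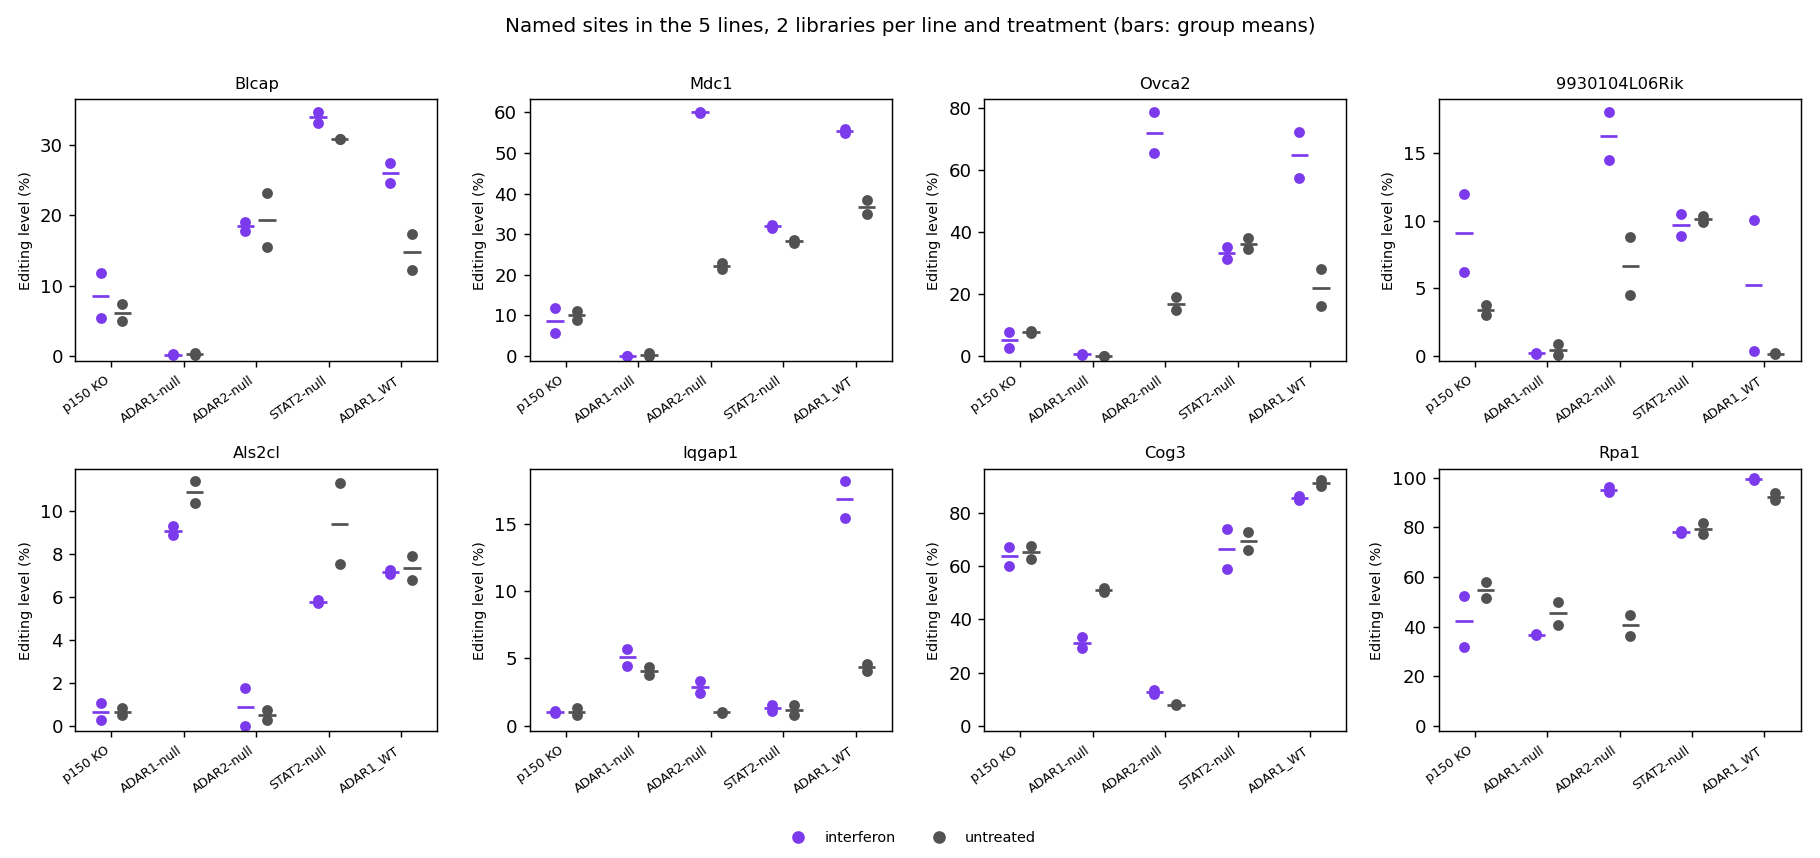
Editing level (%) of 8 named sites in the 5 lines, with p150-knockout cells at the left and wild type at the right, points for the 2 interferon-treated and 2 untreated libraries and bars for group means. Als2cl is below 2% in p150-knockout and ADAR2-null cells and above 5% in the other 3 lines, and Cog3 is below 15% in ADAR2-null cells alone.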

How the data were processed

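RNA was reverse-transcribed and the targeted loci amplified by PCR, per the labels' protocols. Per the submitters' processing notes, the tools were BWA and SAMtools (versions not given) and the build mm9. Each library has 1 table deposited by the authors, which per the file headers gives coverage and edited reads as counts per site and the editing level as a fraction. Positions are as deposited, and whether they count from 0 or 1 is not stated. Amplicon reads carry no molecular identifiers, so intervals and upper limits (3 edited reads over the line's coverage) cover counting error only.

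Levels were recomputed as edited reads over coverage. Edited and unedited counts were fitted with edgeR 4.0.16 in R 4.3.3 (methylation design matrix, quasi-likelihood test, two-sided) with treatment and line as terms. Adjustment was by Benjamini-Hochberg over the 114 sites with at least 50 reads in each of the 8 libraries and a mean level of at least 1%, and sites were called under 0.05. Differences in level are in percentage points, p150-knockout minus ADAR1-null, and each SE combines the spread within the 4 groups. Alternatives were other coverage and level minimums, all 20 libraries, limma 3.58.1 on log odds, quasi-binomial regression, a replicate block, no treatment term and each library left out. The replicates of a group differed by more than read counting noise, with chi-square per degree of freedom of 33.9 in interferon-treated p150-knockout cells and 3.89 to 5.05 in the other groups.

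The members and gene lists were chosen with earlier results of these data known. Named sites were per gene the called, non-overlapping site of greatest difference (up to 14 genes higher and 10 lower), the most edited tested site of each listed gene, the 6 genes with the highest level in ADAR1-null cells, and called interactions, of which there were none; 1 site that this rule names is not reported here. Of the 68 tested genes, 57 matched a RefSeq symbol, 3 a synonym and 8 neither. Python 3.11.15 (pandas 2.3.3, numpy 2.4.6) and matplotlib 3.10.9 were used for tables and figures.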

Additional observations from a re-analysis of the deposited data

Results flagged for a closer look

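In 30 sets of 4 libraries, the highest or lowest library was set against the others of its line, and chance alone marks about 1 set in 20. The mean level of the tested sites was 4.93% in the first interferon-treated p150-knockout library, against 3.64% to 3.68% in the other 3. The same library was the high one for Ifnar1, at 6.98%, and the low one for Ovca2, at 2.49%. In ADAR1-null cells the second untreated library was the high one for Mdc1, at 0.735%, and for 9930104L06Rik, at 0.869%, and the first untreated library was the high one for Gria3, at 2.75%. The causes were not tested.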

How the results depend on the processing

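The number of called sites moved with most choices. For both treatments together (7 sites) it was 16 and 15 with at least 100 and 200 reads, 31 with no minimum level, 4 with a mean of at least 5%, 33 with all 20 libraries in the fit, 20 by limma, 14 by quasi-binomial regression and 12 without the treatment term. It was 22 without the first interferon-treated p150-knockout and first untreated ADAR1-null libraries together, an alternative chosen after seeing the data, and 2 to 25 with each library left out, where the lone library of a group is assumed to vary like the others. Untreated (0 sites), the same choices gave 5, 6, 8, 1, 12, 7 and 1 up to quasi-binomial regression, a mean of at least 0.5% gave 3, and leaving out a library gave 0 to 13. With interferon (1 site), it was 2 and 3 with at least 100 and 200 reads, 5 with no minimum level, 4 with at least 5%, 15 with all 20 libraries, 3 by quasi-binomial regression and 0 to 18 with each library left out. The interaction (0 sites) gave 1 with no minimum level and 0 to 1 with each library left out. The difference in mean level (1.73 points) was 0.140 with no minimum level, 0.601 with at least 0.5%, 6.54 with at least 5%, 1.16 as edited over all reads, and 1.51 to 2.01 with each library left out, higher in p150-knockout cells each time. Beyond the fewer or more sites and libraries that enter, the causes were not tested.

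The replicate block gave 10 sites for both treatments and 0 with interferon. The replicate numbers share only a number: deviations of same-numbered libraries correlated at -0.00986 between the untreated groups of the lines and -0.209 between the interferon-treated groups.

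Among named sites, tested over both treatments, Blcap and Iqgap1 kept their call in each of the 19 alternatives that gave a value. Cog3 was called in 3 alternatives of 20 and Gria3 in 5 of 19. The sign turned only at sites with adjusted p above 0.9. For Mad2l1 it turned without the second interferon-treated p150-knockout library (1.05) or replicate 1 of untreated ADAR1-null cells (0.251), within -1.51 to 1.05. For uc012aji.1 it turned without the first untreated (0.0257) or first interferon-treated p150-knockout library (2.32), replicate 1 of untreated ADAR1-null cells (1.13) and the 2 libraries named above together (3.62), within -2.65 to 2.32 over the left-out libraries.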
